A study of Homo sapiens with 22 samples.

Results

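Glycogen metabolism was examined through 9 genes of the 37908 in the count table, chosen by name as the enzymes and regulators of the pathway from which glycogen synthase kinase 3 (GSK3) takes its name, and found through their Ensembl identifiers. They were GYS1, GYG1, GBE1, UGP2 and PGM1 (synthesis), PYGB and PYGL (breakdown), and PPP1R3C and PPP1R3D (targeting of protein phosphatase 1 to glycogen). All cultures were of H1299, a line derived from a human non-small cell lung cancer, in which doxycycline (DOX) switches on an shRNA that depletes BRCA2. BRCA2-proficient cells grew without DOX and BRCA2-deficient cells with 2 µg/mL DOX for 3 days, so DOX and BRCA2 depletion cannot be told apart. Each background received control siRNA or siRNA against β-catenin (siβ-catenin), and then 250 nM LY2090314, a GSK3 inhibitor (GSK3i), for 24 h or none. "Untreated" here means control siRNA without GSK3i, and RNA was sequenced from 22 libraries in 8 groups. The BRCA2-proficient groups were untreated (n = 2), GSK3i (n = 3), siβ-catenin (n = 2) and GSK3i + siβ-catenin (n = 3), and the same 4 BRCA2-deficient groups had n = 3 each.

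Glycogen is a branched polymer of glucose. Phosphoglucomutase (PGM1) interconverts glucose 6-phosphate and glucose 1-phosphate, UDP-glucose pyrophosphorylase (UGP2) makes the activated sugar UDP-glucose, glycogenin (GYG1) primes the chain, glycogen synthase (GYS1, the form of muscle and most tissues) extends it and the branching enzyme (GBE1) adds branches, while the phosphorylases PYGB (brain form) and PYGL (liver form) release glucose 1-phosphate. GSK3 inhibits glycogen synthase by phosphorylating the protein, and protein phosphatase 1, brought to glycogen by targeting subunits such as PPP1R3C and PPP1R3D, reverses this. The measurements below are of mRNA, and phosphorylation of the synthase was not measured.

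The sequences upstream of the 3 genes that passed the test in some comparison are shown because GSK3i lets β-catenin accumulate and β-catenin acts through TCF/LEF factors at promoters. Each is the 250 bases before the gene's start in RefSeq (GRCh38.p14), 5′ to 3′ on the gene's strand. Capitals mark CACGTG (an E-box) and, elsewhere, ACGTG or its complement CACGT (the core of hypoxia response elements, which every CACGTG also contains).
PPP1R3C (chr10:91633072-91633321, minus strand): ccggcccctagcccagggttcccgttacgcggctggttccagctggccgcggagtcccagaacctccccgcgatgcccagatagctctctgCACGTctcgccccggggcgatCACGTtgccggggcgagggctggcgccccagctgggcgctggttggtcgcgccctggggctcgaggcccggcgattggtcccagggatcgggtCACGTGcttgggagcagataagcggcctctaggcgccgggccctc
GYG1 (chr3:148991290-148991539, plus strand): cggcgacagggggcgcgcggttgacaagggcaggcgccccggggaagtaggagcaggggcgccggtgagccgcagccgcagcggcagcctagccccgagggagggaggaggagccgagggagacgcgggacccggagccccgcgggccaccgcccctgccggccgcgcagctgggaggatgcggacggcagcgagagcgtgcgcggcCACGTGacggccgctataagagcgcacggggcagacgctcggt
PYGL (chr14:50944484-50944733, minus strand): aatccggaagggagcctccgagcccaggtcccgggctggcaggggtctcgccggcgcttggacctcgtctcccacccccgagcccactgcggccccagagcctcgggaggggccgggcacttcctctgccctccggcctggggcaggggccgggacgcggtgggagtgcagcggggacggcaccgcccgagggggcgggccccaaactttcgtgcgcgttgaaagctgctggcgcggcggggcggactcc
The search covered both strands. Besides the E-box and the hypoxia core it took CTTTGA as the letters of TCF/LEF sites. The letters for FOX factors were TGTTTAC. The E-box letters CACGTG lay 45 to 40 bases before the PPP1R3C start and 43 to 38 bases before the GYG1 start, and the window of PPP1R3C held a further pair of CACGT matches that began 138 and 159 bases before it. PPP1R3D also held CACGTG, 209 to 204 bases before its start. The PYGL window held none of the 4 motifs. CTTTGA was found only in the window of GYS1 among the 9 genes, 250 to 245 bases before its start. Over 35116 RefSeq windows of the same length, CTTTGA was present in 11.2%, the E-box in 6.34%, the hypoxia core in 18.5% and the FOX motif in 2.98%. These matches describe letters only.

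Values are DESeq2-normalised read counts, changes are log2 fold changes ± SE, and adjusted p-values are from DESeq2 (Wald test, Benjamini-Hochberg over all genes tested). A gene was called when its adjusted p was below 0.05 and its change beyond 0.5 in size. Library totals were 18.9 to 29.3 M counts. BRCA2 was lower by DOX in all 4 settings (-2.67 to -2.14, and -3.32 with siβ-catenin), CTNNB1, the β-catenin gene, was lower with siβ-catenin in all 4 (-2.12 to -1.68), and the β-catenin target AXIN2 rose with GSK3i by 3.83 ± 0.19 without and 4.61 ± 0.22 with DOX. The epithelial genes KRT18 and KRT8 were abundant, whereas EPCAM and CDH1 did not exceed 22.2 and 5.9 normalised counts. The epithelial marker list was therefore met in part. The mesenchymal marker VIM was also abundant. The lung-lineage markers were low or near absent, with mean normalised counts of 47.4 for NKX2-1, 2.66 for NAPSA and 0.267 for SFTPC. The blood marker PTPRC did not exceed 1.57. Because these are bulk libraries, a change in the mRNA of every cell and a change in the share of cells with more of it cannot be told apart.

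In 3 BRCA2-proficient libraries the response to GSK3i went against the label. On a scale set by 1535 genes lowered and 1765 raised by GSK3i in BRCA2-deficient cells, where 0 is the mean of untreated and 1 the mean of GSK3i in those cells, the library labelled GSK3i + siβ-catenin replicate 2 lay at 0.16 and 0.20, where the untreated BRCA2-proficient libraries lay (0.16 to 0.20). The library labelled siβ-catenin replicate 2 lay at 0.96 and 0.84. The library labelled siβ-catenin replicate 3 lay at 0.52 and 0.41, between the untreated and the GSK3i libraries, so it went against its label only in part. The other BRCA2-proficient libraries with GSK3i lay at 0.82 or above. All 3 had low CTNNB1 (1871 to 2185). Results that use them are given as those of the libraries so labelled. The comparisons of untreated with GSK3i in either background and all comparisons within BRCA2-deficient cells use none of them.

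**Figure D1:**
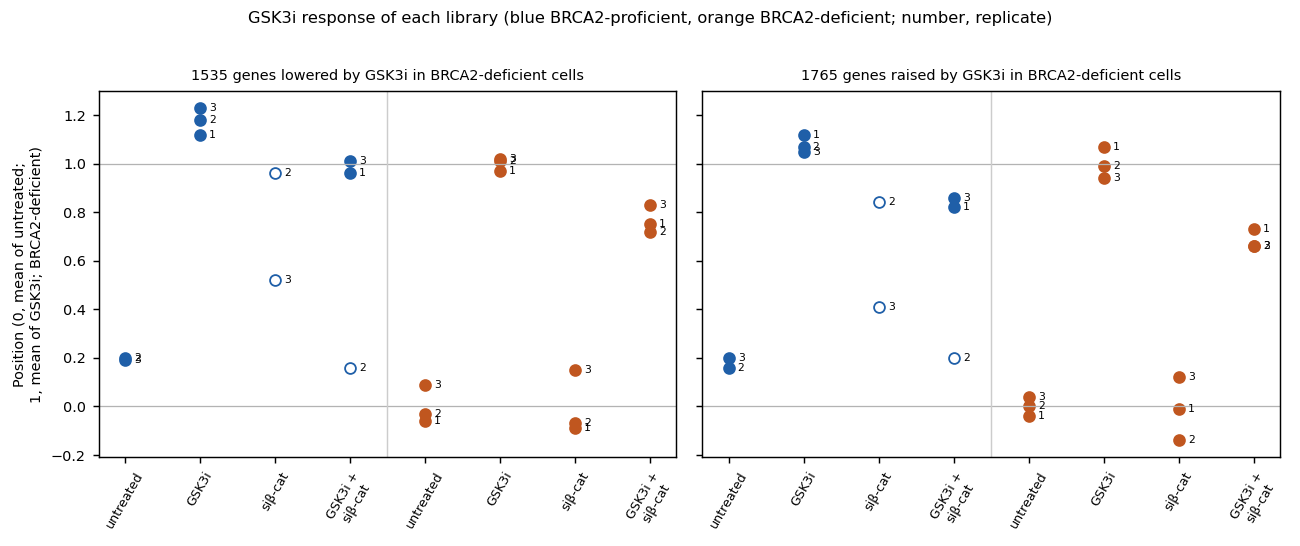
Position of each library on the GSK3i response, from 1535 genes lowered (left) and 1765 raised (right) by GSK3i in BRCA2-deficient cells. The y axis has 0 at the mean of untreated and 1 at the mean of GSK3i BRCA2-deficient libraries, points are libraries with their replicate number, and the 3 open circles are the BRCA2-proficient libraries at 0.96 and 0.52 (siβ-catenin) and 0.16 (GSK3i + siβ-catenin) on the left panel.

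All 9 genes were expressed and passed the filter on low counts in every comparison. Per kilobase of exon, the mean normalised count over the 22 libraries was highest for PYGB (1245), followed by PYGL (543), UGP2 (426), GBE1 (422), PGM1 (409.7), GYG1 (336) and GYS1 (175), and lowest for PPP1R3C (85) and PPP1R3D (57.2). The tissue-restricted counterparts GYS2, PYGM, GYG2 and PPP1R3A were at the limit of detection. GYS2, the liver synthase, had a mean of 3.72 normalised counts, PYGM, the muscle phosphorylase, 4.56, GYG2, the liver glycogenin, 0.0454, and PPP1R3A, the muscle targeting subunit, 0.0521. H1299 cells therefore held the mRNA of GYS1 and GYG1 for synthesis and of PYGB and PYGL, with no more than traces of the other forms of these enzymes. Not every other targeting subunit was low, as PPP1R3B had a mean of 828 normalised counts. Across all libraries the highest level was 1.64 (GBE1) to 2.19 (GYG1) times the lowest for the 7 enzymes, 1.69 times for PPP1R3D and 2.9 times for PPP1R3C, the most variable of the 9. When the 8 groups were ordered by mean, neighbouring groups overlapped at every step for each gene except PYGL. How many of all genes have such a gap was not counted.

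**Figure D2:**
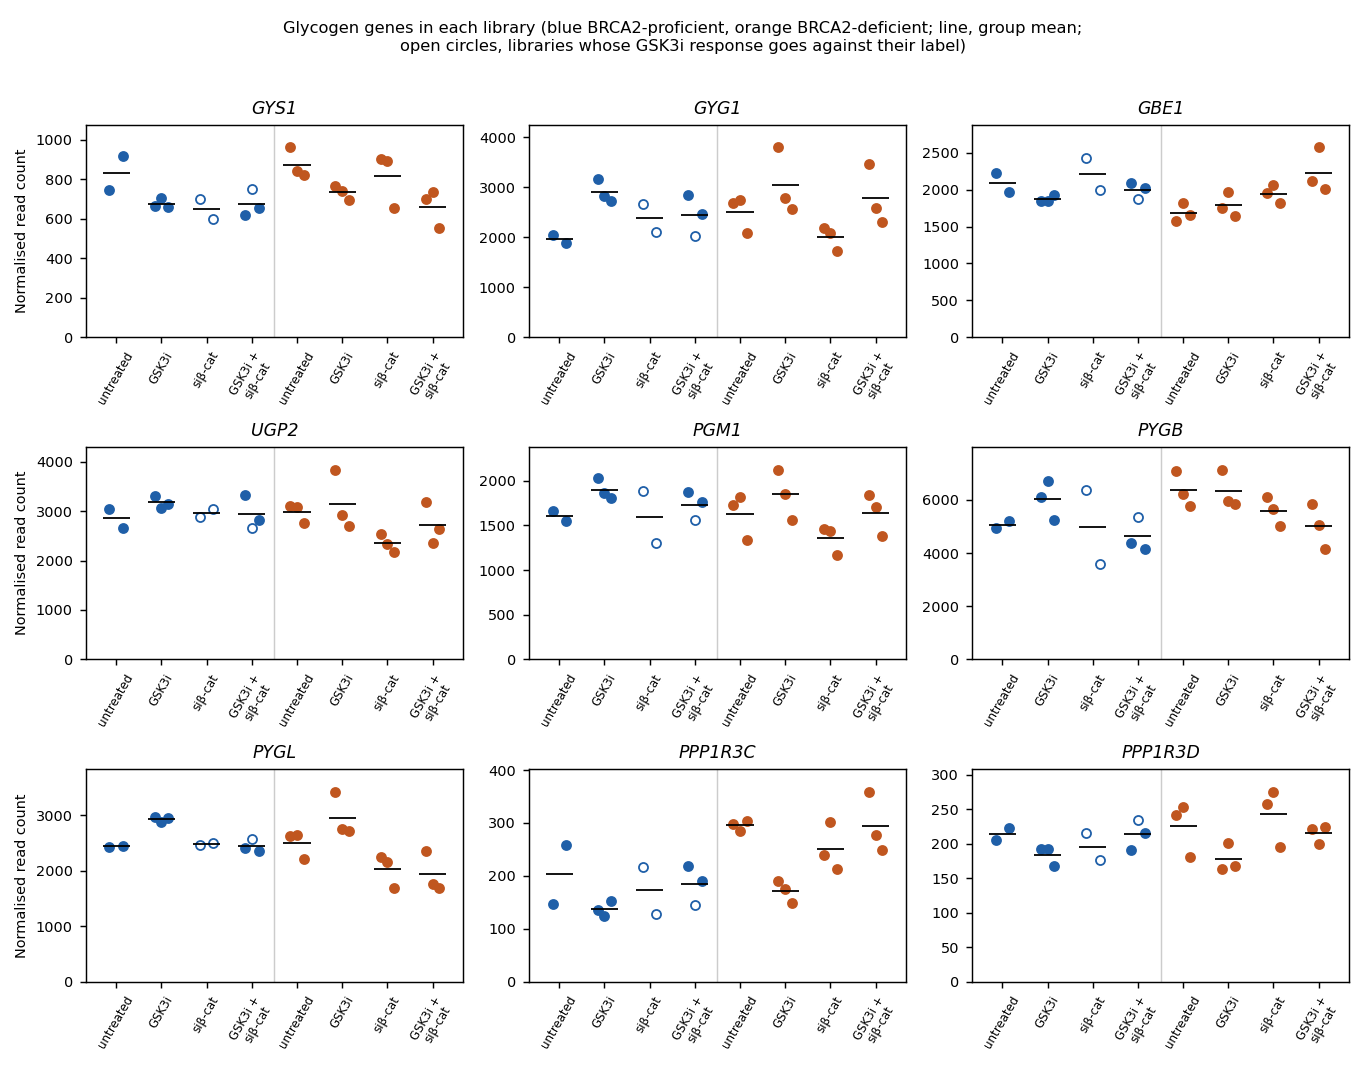
Normalised read counts (y axes, linear from 0) of the 9 glycogen genes in the 22 libraries by group (x axes), with blue for BRCA2-proficient, orange for BRCA2-deficient, lines for group means and open circles for the 3 libraries whose GSK3i response went against their label. PPP1R3C is lower in all 3 BRCA2-deficient GSK3i libraries (148 to 191) than in the untreated ones (285 to 303). Of all genes tested there, 43% did not overlap, in either direction.

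The effect of GSK3i with control siRNA was asked first, since the synthase is the substrate GSK3 is named for. GYG1 rose in BRCA2-proficient cells and PPP1R3C fell in BRCA2-deficient cells, and neither the synthase, the branching enzyme nor a phosphorylase was called in either background. In BRCA2-proficient cells 1 of 9 genes was called, where 26.1% of 16771 genes tested were. In BRCA2-deficient cells 1 of 9 was called, where 25.4% of 16863 genes were. At an unadjusted p below 0.05 there were 4 of 9 (42.4% of genes tested) and 1 of 9 (38.1%). By either measure the share of the members was near that of all genes or below it. The median change of the 9 was 0.14 and 0.08, beside medians of -0.00 and 0.02 over all genes tested.

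Among the genes that supply and build the polymer, glycogenin changed most. GYG1 (ENSG00000163754, GRCh37 chromosome 3, 148709195 to 148749562, plus strand) had 2037 and 1893 normalised counts in the untreated BRCA2-proficient libraries and 3159.7, 2818 and 2728 with GSK3i. All 3 GSK3i libraries were above both untreated ones (61.4% of genes tested did not overlap, in either direction). GYG1 rose by 0.55 ± 0.13 (1.46-fold, adjusted p = 2.9e-04). In BRCA2-deficient cells the untreated libraries had 2691, 2742 and 2087 and the GSK3i libraries 3797, 2783 and 2561. The groups overlapped there, and the change was 0.28 ± 0.21 (95% interval -0.13 to 0.69, adjusted p = 0.335). Each GSK3i library was nevertheless above the untreated library of the same number, and with the replicate number as a block the change of 0.27 had an adjusted p of 0.0274, short of the size criterion alone. The difference between the backgrounds was -0.28 ± 0.26 and was not called (95% interval -0.79 to 0.22, adjusted p = 1). The GYG1 call fell short of the size criterion without GSK3i replicate 1 (0.49, adjusted p = 0.0011), and of both criteria without untreated replicate 3 (0.49, adjusted p = 0.054). It also fell short in size with the replicate number as a block (0.48, adjusted p = 0.00498). In the annotation 1649 exon bases of GYG1 overlap HLTF on the opposite strand, and the strand setting of the counting is not stated, so GYG1 counts are uncertain to that extent. In BRCA2-proficient cells HLTF had 4184 ± 356 (SD, n = 2) untreated and 3993 ± 448 (SD, n = 3) with GSK3i. Over all libraries HLTF ran from 1437 to 4436, so it was not at 1 level throughout.

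Glycogen synthase mRNA was slightly lower with GSK3i in both backgrounds without passing the test. GYS1 (ENSG00000104812, chromosome 19, 49471387 to 49496567, minus strand) had 744 and 917 in untreated BRCA2-proficient libraries and 665, 704 and 659.6 with GSK3i. In BRCA2-deficient cells it had 962, 842 and 821 untreated and 769, 741 and 697 with GSK3i. In each background every GSK3i library was below every untreated one, a separation that, in either direction, was seen for 61.4% of genes tested without DOX and 43% with DOX. The changes were -0.31 ± 0.16 (adjusted p = 0.115) and -0.25 ± 0.15 (adjusted p = 0.224), and their 95% intervals reached -0.62 and -0.55.

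The other 3 enzymes of synthesis moved less. GBE1 (ENSG00000114480, chromosome 3, 81538854 to 81810796, minus strand) changed by -0.17 ± 0.13 in BRCA2-proficient cells and by 0.09 ± 0.15 after BRCA2 depletion. UGP2 (ENSG00000169764, chromosome 2, 64068086 to 64118696, plus strand) changed by 0.14 ± 0.13 and 0.08 ± 0.18. PGM1 (ENSG00000079739, chromosome 1, 64059082 to 64125916, plus strand), of which 197 exon bases overlap ITGB3BP on the opposite strand, changed by 0.23 ± 0.13 and 0.18 ± 0.19. None of these was called, and the 95% intervals of all 6 values lay between -0.43 and 0.56.

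Neither phosphorylase was called with GSK3i. PYGL (ENSG00000100504, chromosome 14, 51324609 to 51411201, minus strand) had 2429 and 2456 in untreated BRCA2-proficient libraries and 2975, 2875 and 2945 with GSK3i. The corresponding BRCA2-deficient values were 2634, 2642 and 2213, and then 3427, 2746 and 2711. In the annotation 180 exon bases of PYGL overlap the non-coding gene ENSG00000258745 on the opposite strand, so its counts are uncertain to that extent. The GSK3i libraries were above the untreated ones in both backgrounds. In either direction, 61.4% of genes tested without DOX and 43% with DOX were so separated. PYGL changed by 0.25 ± 0.12 (adjusted p = 0.1) and 0.25 ± 0.17 (adjusted p = 0.294), short of both criteria. Over the DESeq2 and edgeR alternatives the latter change ran from 0.13 to 0.31, with adjusted p from 0.0335 to 0.588. PYGB (ENSG00000100994, chromosome 20, 25228721 to 25278648, plus strand), the most abundant member, changed by 0.23 ± 0.14 (adjusted p = 0.197) and -0.01 ± 0.16 (adjusted p = 0.968).

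PPP1R3C, which brings protein phosphatase 1 to glycogen and is also known as PTG, was the gene with the largest response. PPP1R3C (ENSG00000119938, chromosome 10, 93388199 to 93392828, minus strand) had 298, 285 and 303 in the untreated BRCA2-deficient libraries and 191, 175 and 148 with GSK3i. The groups were apart, as they were for 43% of genes tested, in either direction. PPP1R3C fell by 0.79 on the log2 scale (SE 0.19, 0.58 times the untreated level, adjusted p = 4.55e-04). It was called in all 11 alternatives tried, with changes from -0.87 to -0.68 and adjusted p between 1e-04 and 0.0186. Of the BRCA2-proficient libraries, the untreated ones had 147 and 258 and the GSK3i libraries 135, 124 and 152. The first of these untreated libraries, replicate 2, lay within the GSK3i range, and the change was -0.58 ± 0.27 (95% interval -1.11 to -0.05, adjusted p = 0.0806). Without untreated replicate 2 it was -0.92 (adjusted p = 0.0297), and over the alternatives it ran from -0.92 to -0.12. The difference between the backgrounds was -0.22 ± 0.32 (adjusted p = 1), so the fall is not shown to be particular to BRCA2-deficient cells. PPP1R3D (ENSG00000132825, chromosome 20, 58511718 to 58515360, minus strand), a related targeting subunit whose exons overlap FAM217B by 123 bases on the opposite strand, changed by -0.23 ± 0.21 and -0.35 ± 0.23 and was not called.

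**Figure D3:**
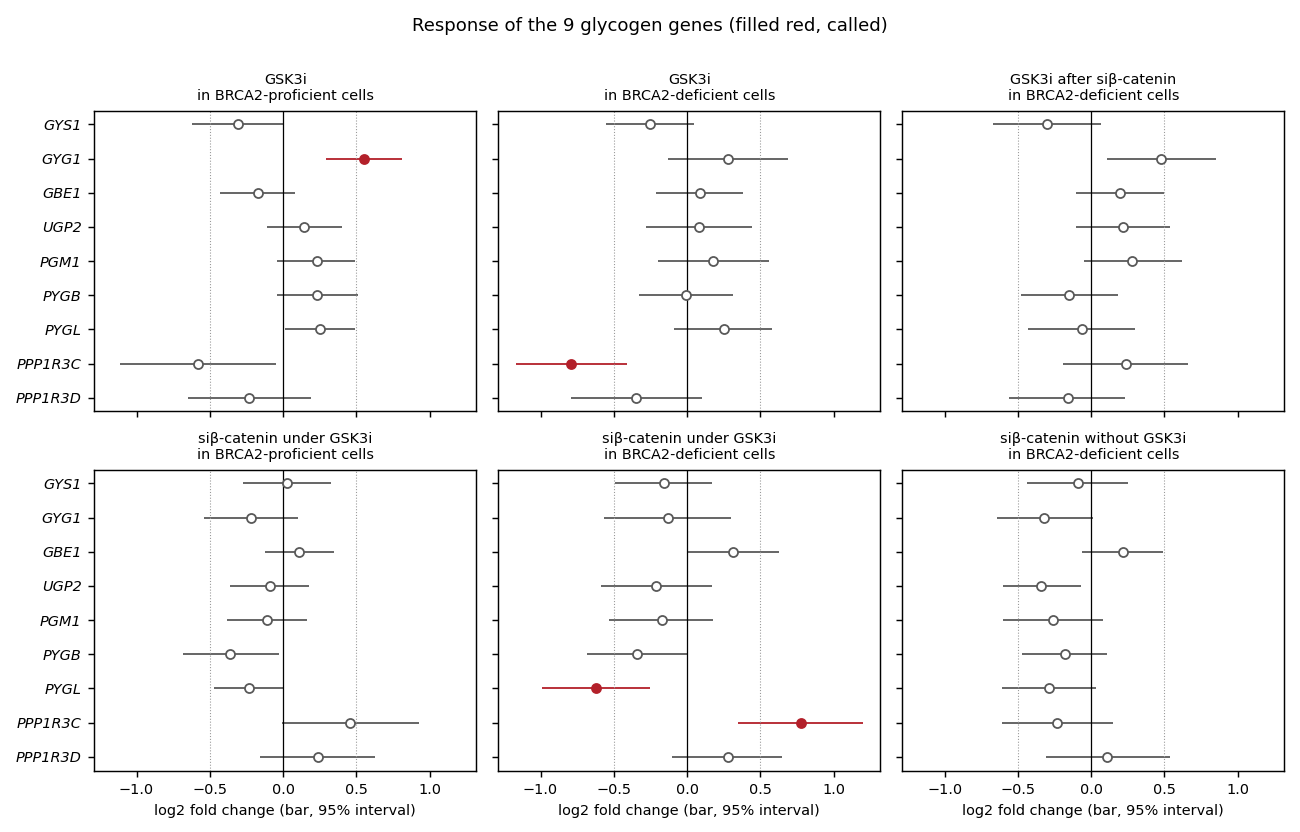
Log2 fold changes of the 9 genes (points, with 95% intervals) in 6 comparisons, with GSK3i in the upper row from left to right for BRCA2-proficient cells, BRCA2-deficient cells and BRCA2-deficient cells after siβ-catenin, and siβ-catenin in the lower row under GSK3i in BRCA2-proficient and then BRCA2-deficient cells and without GSK3i in BRCA2-deficient cells, with dotted lines at a change of 0.5 in either direction and filled red points for called genes. The 4 red points are GYG1 at 0.55, PPP1R3C at -0.79 and 0.78, and PYGL at -0.62.

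The dependence on β-catenin was asked by adding siβ-catenin under GSK3i. In BRCA2-deficient cells PPP1R3C rose and PYGL fell, and 2 of 9 genes were called, where 5.52% of 17025 genes tested were. PPP1R3C had 191, 175 and 148 with GSK3i and 359, 277 and 248 with GSK3i + siβ-catenin. The groups did not overlap, and PPP1R3C rose by 0.78 ± 0.22 (1.71-fold, adjusted p = 0.0105). PYGL had 3427, 2746 and 2711 with GSK3i and 2359.8, 1769 and 1686 with both. Again the groups did not overlap (23.5% of genes tested were so separated, in either direction), and PYGL fell by 0.62 (SE 0.19, 0.652 times, adjusted p = 0.021). Both calls depended on how the spread between libraries was modelled. Same-numbered libraries deviated together in this comparison (r of 0.868, 0.56 and 0.586). Only the fit with the replicate number as a block takes this into account. With the edgeR quasi-likelihood test neither passed (adjusted p = 0.0847 and 0.111), whereas with the replicate number as a block both did (1.75e-04 and 4.49e-11). Leaving out any single one of GSK3i replicates 2 and 3 or GSK3i + siβ-catenin replicates 1 and 2 ended the PPP1R3C call (0.62 to 0.81, adjusted p 0.0703 to 0.14), and leaving out any library but GSK3i + siβ-catenin replicate 1 ended that of PYGL (-0.68 to -0.50, adjusted p 0.0708 to 0.193). Of the other members, GBE1 was higher in every library with both (2116, 2570.5 and 2006 against 1756, 1963 and 1641), with a change of 0.31 ± 0.16 (adjusted p = 0.28), and PYGB was lower in every library, with -0.34 ± 0.18 (adjusted p = 0.286). These p-values depended on the fit. Over the DESeq2 and edgeR alternatives adjusted p ran from 0.00325 to 0.764 for GBE1 and from 3.73e-04 to 0.731 for PYGB. The changes ran from 0.20 to 0.38 and from -0.46 to -0.22, always short of the size criterion.

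In BRCA2-proficient cells under GSK3i, 0 of 9 genes were called by DESeq2 or edgeR with siβ-catenin, where DESeq2 called 5.1% of 16393 genes, and 2 of 9 (PYGB and PYGL) had an unadjusted p below 0.05, as did 17.5% of all genes tested. PPP1R3C had 135, 124 and 152 with GSK3i and 219.5, 145 and 191 with both. Its change was 0.46 ± 0.24 (95% interval -0.01 to 0.93, adjusted p = 0.284), and without the library labelled GSK3i + siβ-catenin replicate 2 it was 0.60 (adjusted p = 0.0775). PYGL changed by -0.23 ± 0.12 (adjusted p = 0.264), with 2417, 2574 and 2356 against 2975, 2875 and 2945. The difference between backgrounds was 0.34 ± 0.30 for PPP1R3C and -0.36 ± 0.21 for PYGL (adjusted p = 1 for each). For these differences 0 of 9 members were called by either tool or had an unadjusted p below 0.05, and DESeq2 called 0.0057% of all 17544 genes.

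Without GSK3i, siβ-catenin in BRCA2-deficient cells led to 0 calls among the 9 by DESeq2 or edgeR, where DESeq2 called 2.03% of 17324 genes. UGP2 alone had an unadjusted p below 0.05 (1 of 9, beside 12.8% of all genes tested). It had 3105, 3077 and 2765 untreated and 2537, 2335 and 2184 with siβ-catenin, all lower (19.1% of genes tested did not overlap, in either direction), with a change of -0.34 ± 0.14 (adjusted p = 0.195). PYGL had 2256, 2152 and 1692 with siβ-catenin and 2634, 2642 and 2213 without, with a change of -0.29 ± 0.16 (adjusted p = 0.445). PPP1R3C had 239, 301 and 213, overlapping the untreated libraries, and changed by -0.23 ± 0.20 (adjusted p = 0.686).

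The response to GSK3i after siβ-catenin was examined in BRCA2-deficient cells. The β-catenin target AXIN2 still rose there by 0.98 ± 0.27 (adjusted p = 0.00258), so the depletion was not shown to be complete. Whether a change still present was independent of β-catenin was not tested. PPP1R3C was at 359, 277 and 248 with GSK3i and 239, 301 and 213 without, and its change was 0.24 ± 0.22 (95% interval -0.19 to 0.66, adjusted p = 0.462). GYG1 had 3469, 2592 and 2301 with GSK3i against 2191, 2094 and 1732, every library higher (40.4% of genes tested did not overlap, in either direction), and changed by 0.48 ± 0.19 (adjusted p = 0.045), just short of the size criterion. Without GSK3i + siβ-catenin replicate 3 it was called (0.61, adjusted p = 0.016). In all, 0 of 9 genes were called by DESeq2 or edgeR, where DESeq2 called 20.1% of 17610 genes, and 1 of 9 (GYG1) had an unadjusted p below 0.05, where 35% of genes did. The interaction of GSK3i with siβ-catenin was called for PPP1R3C alone (1 of 9, beside 0.486% of 18117 genes), at 1.01 ± 0.28 (adjusted p = 0.0481). This call ended in 12 of 17 alternatives, with values from 0.83 to 1.16 and adjusted p from 0.00217 to 0.346. For PYGL the interaction was -0.32 ± 0.25 and for GYG1 0.18 ± 0.29 (adjusted p = 1 for each). These comparisons share the same 12 libraries and are not separate evidence.

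In the order of group means for PYGL, both GSK3i groups came first (2711 to 3427 over their 6 libraries), both untreated groups and both BRCA2-proficient groups labelled siβ-catenin lay between (2213 to 2642), and the BRCA2-deficient groups with siβ-catenin came last (1686 to 2359.8). No GSK3i library overlapped the groups in between, whereas those in between overlapped the groups that came last. This order was described after the means were seen, and how many of all genes share it was not counted. For GSK3i against untreated alone, 61.4% of genes tested without DOX and 43% with DOX did not overlap, in either direction. The groups in between hold the 3 libraries that went against their labels. Their place is therefore not read as a response to the labelled treatments.

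With the BRCA2-proficient libraries labelled siβ-catenin, 0 of 9 genes were called for GSK3i after siβ-catenin (0.0529% of 17010 genes called), 0 for siβ-catenin without GSK3i (2.97% of 17654), and 0 for their interaction (7.63% of 17093), by DESeq2 or edgeR. These shares depended on the tool, since edgeR called 0, 1 and 4 genes in all where DESeq2 called 9, 524 and 1305. At an unadjusted p below 0.05 the counts were 0, 0 and 1 (GYG1, -0.50 ± 0.26, adjusted p = 0.193). PPP1R3C had 217 and 128 and GYG1 2674 and 2101 in the 2 siβ-catenin libraries. The first value of each pair is from the library at 0.96 on the GSK3i scale. These values cannot be read as responses to the labelled treatments while the libraries go against their labels.

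BRCA2 depletion changed none of the 9 genes past the test. In untreated cells 0 of 9 were called by DESeq2 or edgeR (DESeq2, 6.91% of 17157 genes), with GSK3i 0 of 9 (6.81% of 16336), with siβ-catenin 0 of 9 (27.4% of 17813) and with both 0 of 9 (7.74% of 17046). At an unadjusted p below 0.05 there were 1 (GBE1), 0, 1 (UGP2) and 1 (PPP1R3C) of 9, where 18.5%, 19.2%, 39.3% and 18.8% of all genes tested were. GBE1 had 2226 and 1963 in untreated BRCA2-proficient libraries and 1571, 1815 and 1656 in BRCA2-deficient ones, with no overlap (40% of genes did not overlap, in either direction), and changed by -0.34 ± 0.17 (adjusted p = 0.214). The mean of PPP1R3C was higher in BRCA2-deficient cells in each setting, without a call in the main test. The groups overlapped with GSK3i and with siβ-catenin. The setting with siβ-catenin rests on the BRCA2-proficient libraries that went against their labels, so it is not read as an effect of BRCA2 depletion. The changes were 0.51 ± 0.27 untreated (95% interval -0.02 to 1.05, adjusted p = 0.266), 0.31 ± 0.21 with GSK3i (adjusted p = 0.432), 0.52 ± 0.29 with siβ-catenin (adjusted p = 0.169) and 0.66 ± 0.25 with both (95% interval 0.18 to 1.14, adjusted p = 0.0691). The first value was 0.17 without BRCA2-proficient untreated replicate 2 and 0.97 without replicate 3 (adjusted p = 0.966 and 0.188), and the last was called in 1 model over all groups (0.67, adjusted p = 0.0328). Without the library labelled BRCA2-proficient GSK3i + siβ-catenin replicate 2, PPP1R3C with both was 0.51 higher (adjusted p = 0.161). With siβ-catenin, leaving out the library labelled BRCA2-proficient siβ-catenin replicate 2 gave 2 calls, PPP1R3C (0.94, adjusted p = 0.0239) and PYGB (0.61, adjusted p = 0.0149). The effect of GSK3i differed between backgrounds for 0 of 9 genes by either tool, with none at an unadjusted p below 0.05, and DESeq2 called 0.0345% of 17381 genes.

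Of 24 further genes of glycogen metabolism, 20 passed the filter. With GSK3i, 1 rose and 3 fell in BRCA2-proficient cells, and 1 rose and 2 fell in BRCA2-deficient cells, which is no larger a share than that of all genes called in either direction (26.1% and 25.4%). PPP1CC, a catalytic subunit of protein phosphatase 1, rose by 0.69 ± 0.12 and 0.68 ± 0.16 (adjusted p = 1.12e-07 and 2.46e-04), while the catalytic subunits PPP1CA and PPP1CB were not called. Among the targeting subunits PPP1R3G fell in both, by 2.44 and 1.95 on the log2 scale (SE 0.55 and 0.38, adjusted p = 6.62e-05 and 5.86e-06), from 61.1 ± 9.2 (SD, n = 2) to 11.4 ± 7.82 (n = 3) and from 77.5 ± 9.86 to 20.3 ± 8.52 (n = 3 each), so at low counts. After siβ-catenin in BRCA2-deficient cells PPP1R3G still fell with GSK3i, by 1.47 (SE 0.31, adjusted p = 4.7e-05), and PPP1CC rose by 0.81 ± 0.14 (adjusted p = 1.39e-07).
PPP1R3B, another targeting subunit, fell by 0.61 in BRCA2-proficient cells (SE 0.17, adjusted p = 0.00239). STBD1, which tethers glycogen to membranes, fell there by 0.85 (SE 0.29, adjusted p = 0.013), and PHKB, a regulatory subunit of phosphorylase kinase, fell in BRCA2-deficient cells by 0.59 (SE 0.15, adjusted p = 5.07e-04). The call of STBD1 ended with the replicate block (adjusted p = 0.0792) and without untreated replicate 2 or 3 or GSK3i replicate 2 or 3 (adjusted p from 0.0648 to 0.195), and that of PPP1R3B ended without untreated replicate 3 (-0.44, adjusted p = 0.202).

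**Figure D4:**
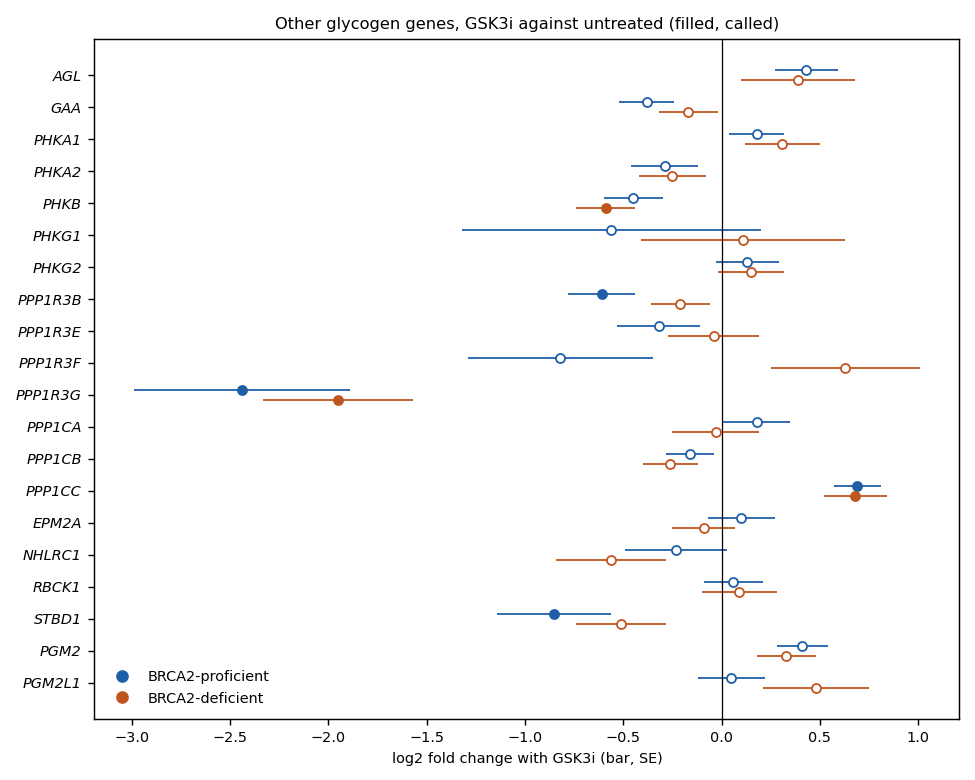
Log2 fold changes with GSK3i (x axis, bars are SE) of the 20 further glycogen genes that passed the filter, in BRCA2-proficient (blue) and BRCA2-deficient (orange) cells, with filled points for called genes. PPP1R3G lies at -2.44 and -1.95 and PPP1CC at 0.69 and 0.68.

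PPP1R3B was called for BRCA2 depletion with control siRNA and for siβ-catenin. It had 1078 ± 169 (SD, n = 2) in untreated BRCA2-proficient cells and 555 ± 20.4 (SD, n = 3) in untreated BRCA2-deficient cells, a fall of 0.98 (SE 0.18, adjusted p = 1.13e-05). With GSK3i the levels were 715 ± 108 and 481 ± 13.7 (n = 3 each), a fall of 0.58 (SE 0.17, adjusted p = 0.00917). With siβ-catenin in BRCA2-deficient cells PPP1R3B rose, by 0.72 ± 0.17 without GSK3i (adjusted p = 0.00438) and 0.92 ± 0.18 under GSK3i (adjusted p = 2.24e-05). Under GSK3i in BRCA2-proficient cells it rose by 0.56 ± 0.17 (adjusted p = 0.0248), and by 0.57 (adjusted p = 0.0166) without the library labelled GSK3i + siβ-catenin replicate 2. PPP1R3B was the only one of the 20 called in each of these 5 comparisons, where 6.91%, 6.81%, 2.03%, 5.52% and 5.1% of all genes were. It was not called for BRCA2 depletion with siβ-catenin (-0.30 ± 0.20, adjusted p = 0.261) or with both (-0.19 ± 0.19, adjusted p = 0.654), and with both 0 of the 20 were called by DESeq2 or edgeR (3 at an unadjusted p below 0.05). With siβ-catenin 5 of the 20 were called, beside 27.4% of all genes, in a comparison that rests on the 2 BRCA2-proficient libraries that went against their labels. GAA (lysosomal glucosidase) was higher in BRCA2-deficient cells there by 0.67 ± 0.15, STBD1 by 1.16 ± 0.28 and PPP1R3G by 2.41 ± 0.46, and PPP1CC (-1.20 ± 0.18) and PGM2 (-0.62 ± 0.15) were lower (adjusted p from 2.27e-09 to 3.75e-04). Its calls were not equally firm. With edgeR they ended for BRCA2 depletion with GSK3i (adjusted p = 0.0597), for siβ-catenin without GSK3i in BRCA2-deficient cells (0.124) and for siβ-catenin with GSK3i where BRCA2 was present (0.124). The first of these also ended without GSK3i replicate 2 or 3 of either background, the second without siβ-catenin replicate 1 or untreated replicate 2, and the last without GSK3i replicate 1 or 2 or GSK3i + siβ-catenin replicate 1 or 3. The call between untreated cells ended without BRCA2-proficient untreated replicate 3 (-0.82, adjusted p = 0.163), whereas the rise under GSK3i in BRCA2-deficient cells was called in all 11 alternatives.

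Lists around the pathway were counted in the same fits, in which 26.1% of all genes were called with GSK3i in BRCA2-proficient cells and 25.4% in BRCA2-deficient cells, so that about 2 of 8 is the background. Of 8 kinases that phosphorylate glycogen synthase or its regulators, GSK3i was followed by a rise of 2 in BRCA2-proficient cells (CSNK2A1, 0.51 ± 0.12, and CSNK2A2, 0.52 ± 0.13) and of 4 in BRCA2-deficient cells (CSNK2A2, 0.55 ± 0.18, GSK3A, 0.58 ± 0.20, PASK, 0.73 ± 0.22, and PRKAA2, 0.98 ± 0.32), and no member fell. GSK3A in BRCA2-proficient cells had 0.47 and was not called, and GSK3B was not called in either. Of 8 genes that supply or use glucose 6-phosphate, HK2 (hexokinase) rose by 0.75 ± 0.22 and 0.91 ± 0.17 and GPI (glucose phosphate isomerase) by 0.76 ± 0.12 and 0.82 ± 0.19, and HK1 rose by 0.53 ± 0.16 in BRCA2-deficient cells. Of 8 genes that use UDP-glucose or UDP-galactose, UGCG (glucosylceramide synthase) fell by 0.91 and 1.30 (SE 0.15 and 0.13) and GALT by 0.63 and 0.72 (SE 0.19 and 0.18), and ALG5 rose by 0.61 ± 0.15 in BRCA2-proficient cells. Adjusted p from DESeq2 for these changes ran from 8e-21 to 0.0158. Of 8 hypoxia-responsive genes 6 passed the filter, and 1 rose in each background, EGLN3 by 0.65 ± 0.24 and VEGFA by 0.79 ± 0.18. Of these genes HK2 and EGLN3 in BRCA2-proficient cells lost their call in 5 of 10 alternatives each and PRKAA2 in BRCA2-deficient cells in 4 of 11, most of them with 1 library left out.

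The genes most like each member in pattern were found from Pearson's r of log2(normalised count + 1) over the 22 libraries, among 11898 genes with a mean of at least 100. The points share libraries, treatments and replicate series, and r is a description. The nearest gene had r = 0.969 for GYG1 (MRPL44, then TRMT10C at 0.965), 0.947 for PGM1 (EIF3L, then CRTAP, 0.946), 0.938 for UGP2 (PSMA4, then PSMA2, 0.933), 0.923 for GYS1 (TIMP2, then SEPTIN6, 0.895), 0.909 for PYGL (SLC27A2, then APEX1, 0.908), 0.872 for PYGB (GRAMD1A, then CDK9, 0.862), 0.856 for PPP1R3C (RNF103, then QPCT, 0.848), 0.843 for PPP1R3D (LINC01003, then DKK3, 0.822) and 0.784 for GBE1 (ALCAM, then PFKFB2, 0.781). For some pairs r differed between the backgrounds. Over BRCA2-proficient and then BRCA2-deficient libraries it was 0.538 and 0.972 for PYGL with SLC27A2, and 0.636 and 0.897 for PPP1R3C with QPCT. For PYGB with GRAMD1A it was 0.954 and 0.753. Between members r was highest for GYG1 with PGM1 (0.86), UGP2 with PYGL (0.79) and GYG1 with UGP2 (0.75), and lowest for PYGL with PPP1R3C (-0.47). Between synthase and primer, GYS1 with GYG1, r was -0.13.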

How the data were processed

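RNA-seq of 22 H1299 libraries was analysed from the deposited table of raw read counts per Ensembl gene. Per the labels and the submitters' processing notes, the authors made poly(A)-selected stranded libraries, aligned reads to hg19 with HISAT2 2.0.4, removed duplicates with Picard 1.9.2 (SAMtools 1.4) and counted with featureCounts 1.5.0. The study's own list of software gives other versions of HISAT2, Picard and featureCounts, and which were used for the deposited counts was not settled. The strand setting of the counting is not given in the sources used here. Removal of duplicates lowers the highest counts most.

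Groups came from the labels, and the replicates are described as independent experiments, so p-values measure the spread between these libraries. Each pairwise comparison was fitted on its own libraries in R 4.3.3 with DESeq2 1.42.0 (median-of-ratios factors, Wald test, no shrinkage). Genes were tested unless more than 3 libraries had fewer than 10 counts, and the 4 interactions needed 10 or more counts in 3 or more libraries. Alternatives were the quasi-likelihood test of edgeR 4.0.16, TMM factors, no filter on low counts, 1 model over all groups, the replicate number as a block, and leaving out each library. Same-numbered libraries deviated together in every comparison with 3 shared numbers (r from 0.141 to 0.868), so there the numbers were read as pairing. Positions of genes are from the GENCODE annotation of GRCh37, and exon lengths from its merged exons. Totals of 18.9 to 29.3 M counts set the counting error, which was smaller than the spread between replicates (chi-square per gene 10.8 to 64.4).

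The 9 genes, the other lists and the tests were chosen with earlier results of these data known. Genes named are the 9, the checks BRCA2, CTNNB1, AXIN2, GSK3A and GSK3B, the list genes called with the largest changes (up to 3 a direction) or counted in a number of 5 or fewer, and the pair of genes most like each member. PDCD4 and YPEL2 values, overlapping genes and cell markers served as checks.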

Additional observations from a re-analysis of the deposited data

Results flagged for a closer look

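Responses to GSK3i that differed with siβ-catenin, by an interaction term in DESeq2, were as follows. In BRCA2-deficient cells the difference was 1.01 ± 0.28 on the log2 scale for PPP1R3C (adjusted p = 0.0481), which had been -0.79 with control siRNA and 0.24 after siβ-catenin. For the β-catenin target AXIN2 it was -3.65 ± 0.34 (adjusted p = 2.51e-22). The call of PPP1R3C ended with the edgeR test (adjusted p = 0.346). With DESeq2 it ended without the filter on low counts (0.0542), in 1 model over all groups (0.216) and with most single libraries left out.

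The same difference in BRCA2-proficient cells rests on the 3 libraries that went against their labels. It was 3.60 ± 1.04 for PPP1R3G (adjusted p = 0.016), -0.78 ± 0.27 for PPP1CC (adjusted p = 0.0484), -0.71 ± 0.23 for the kinase gene CSNK2A1 (adjusted p = 0.031), 0.99 ± 0.33 for GALT (adjusted p = 0.0401) and -3.06 ± 0.38 for AXIN2 (adjusted p = 5.89e-12). Of 15 alternatives, 7 ended the call of PPP1R3G, 9 that of PPP1CC, 7 that of CSNK2A1 and 8 that of GALT. PYGL was higher in both BRCA2-proficient libraries labelled siβ-catenin than in the untreated ones (log2 change 0.02) and lower in all 3 labelled GSK3i + siβ-catenin than in those with GSK3i (-0.23). The gap of 0.25 between these changes was picked out by the opposite directions alone, and that picking is no test. How many of all genes are so separated in these comparisons was not counted.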

How the results depend on the processing

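The direction of every called member change was kept in every alternative. In BRCA2-deficient cells the PPP1R3C fall with GSK3i was called throughout, and leaving out any library left 1 of 9 called. Counts of members called that moved are given here. With the replicate number as a block, 0 rather than 1 was called for GSK3i in BRCA2-proficient cells, where only 2 numbers are shared, too few to read them as pairing (r of 0.0932 and 0.141). The block changed no other member call. With edgeR, 0 were called for siβ-catenin under GSK3i in BRCA2-deficient cells (2 by DESeq2). The interaction of GSK3i with siβ-catenin there had 0 called with edgeR, 0 with no filter on low counts and 0 in 1 model over all groups (1 by the main test). For BRCA2 depletion with GSK3i and siβ-catenin 1 model over all groups called 1 (PPP1R3C). The cause was not tested.

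Leaving out 1 library at a time gave 0 to 2 called for GSK3i in BRCA2-proficient cells, 0 to 1 for GSK3i after siβ-catenin and 0 to 1 for siβ-catenin under GSK3i in BRCA2-deficient cells, 0 to 2 for BRCA2 depletion with siβ-catenin, 0 to 1 with GSK3i and siβ-catenin, and 0 to 1 for the interaction of GSK3i with siβ-catenin in BRCA2-deficient cells. A lone library left in a group is assumed to vary like the other groups. Counts over all genes depended more on the tool. Under edgeR they were 183 (siβ-catenin under GSK3i, BRCA2-proficient, 836 by DESeq2), 267 (BRCA2-deficient, 939), 326 (BRCA2 depletion untreated, 1185), 645 (with GSK3i, 1112), 483 (with both, 1319) and 11 (the interaction in BRCA2-deficient cells, 88), and 0 for siβ-catenin without GSK3i in BRCA2-deficient cells (351, and 527 with the block). With the BRCA2-proficient libraries labelled siβ-catenin, edgeR called 1 without GSK3i (524 by DESeq2, 272 in 1 model over all groups, 189 with the block), 4 for the interaction (1305, and 2128 in 1 model) and 0 for GSK3i after siβ-catenin (9, with 1 and 3). The block gave 2020 for BRCA2 depletion with siβ-catenin (4888), 335 for the interaction in BRCA2-deficient cells (52 in 1 model), 94 for that of GSK3i with BRCA2 status (6, with 0 by edgeR and 1 in 1 model) and 4 for that of siβ-catenin with BRCA2 status (1, with 0 by edgeR, in 1 model and without the filter).

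With 2 or 3 libraries a group, intervals of the members were wide beside the size criterion of 0.5, and smaller changes were often not told from the spread between libraries.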
